A study of Homo sapiens with 4 samples.

Results

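The regions described here are the peaks of chromosomes 2 and 12 that lay more than 5 Mb from both chromosome ends, 379 of the 4889 peaks in the series. They came from 4 lists in which an m6A-immunoprecipitated library of 1 condition was compared directly with the same-numbered library of the other. Chromosome 2 contributed 199 of them and chromosome 12 contributed 180. The chromosomes were selected on the measured direction of their peaks, already known from these lists. Every direction count, position and fold below therefore stands as a description, with no test.

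The study profiled 4 libraries of HEK293, a human embryonic kidney cell line, with 2 libraries of each condition. One condition expressed a slow-elongating version of RNA polymerase II (RNAPII), which the labels call an alpha-amanitin mutant, and the other was the control, labelled wild type (WT). The series' design text speaks of alpha-amanitin mutants of RNAPII for the cells in general. All cells, WT included, were first kept in doxycycline (1 µg/ml) over 24 h, and alpha-amanitin (2.5 µg/ml) was then present beside it over 42 h. Alpha-amanitin is a mushroom toxin that inhibits RNAPII, so both conditions are drug-treated cells. Whether the libraries of a condition came from separate cultures or clones is not stated, and the cell line label could not be checked against marker genes in lists of peaks.

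N6-methyladenosine (m6A) is a methyl mark that the METTL3–METTL14 enzyme complex places on adenosines of nascent RNA, so it is laid down while RNAPII is still transcribing. In messenger RNA it is known for a concentration near stop codons and in long internal exons, and reader proteins of the YTH family use it to control splicing, export and decay. MeRIP-seq fragments RNA, captures the pieces with an antibody against m6A and sequences them, so a peak marks a stretch of RNA and not a single base. Without input libraries in these calls, more methylation and more of the transcript cannot be told apart.

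The libraries were shallow once duplicates were removed. Between 547402 and 1695246 reads were kept, and each slow library kept fewer than its WT partner, by ratios of 2.43 in pair 1 and 2.08 in pair 2. The name slow-higher or WT-higher gives the library in which a peak was enriched. The deposited fold is 1 library over the background estimated from 1 other library, after the deeper WT library was scaled down, with 1 added to both sides. It runs slow over WT at slow-higher peaks and WT over slow at WT-higher peaks, and it has no replicate error of its own. Fragment numbers of the higher library at a summit are given before scaling. At WT-higher peaks the fold therefore uses fewer WT fragments than the number given. Genes, exons and sequences are not named, because no hg19 annotation or genome was used here, and all positions are hg19.

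On chromosome 2 slow-higher peaks outnumbered WT-higher peaks by about the same margin in both pairs. Pair 1 had 95 slow-higher and 23 WT-higher peaks, a slow-higher share of 80.5% (95% interval 72.2% to 87.2%). Pair 2 had 66 slow-higher and 15 WT-higher peaks, a share of 81.5% (95% interval 71.3% to 89.2%). The mean over the pairs was 81.0% ± 0.688 (SD, n = 2). Over all peaks of the series, 67.3% in pair 1 and 66.2% in pair 2 were slow-higher. These intervals cover counting error only, and peaks of 1 transcript are not independent.

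Chromosome 12 was divided more evenly, with a small excess of WT-higher peaks. Pair 1 had 48 slow-higher and 61 WT-higher peaks, a slow-higher share of 44.0% (95% interval 34.5% to 53.9%). Pair 2 had 33 and 38, a share of 46.5% (95% interval 34.5% to 58.7%), and the mean was 45.3% ± 1.73 (SD, n = 2). Both intervals include an even division, but both shares lay below the 67.3% and 66.2% of all peaks of the series. The caller's q-value, a p-value adjusted for the number of positions tested, was used to keep only the more confident peaks, at −log10 q of 5 or more. The shares were then 50% and 50.9%, so the small WT excess over an even division was seen only with the less confident peaks included. The share of the whole series at that limit is not given here, so a difference from the series was not examined there.

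Neither chromosome was the extreme of the genome. Counted over whole chromosomes, slow-higher shares of the 23 chromosomes other than Y had a median of 62.8% in pair 1 and 61.3% in pair 2. Chromosome 2 ranked 5 and 3 from the top with 83.3% and 83.5%, while chromosome 12 ranked 20 in both pairs with 45.8% and 48.8%. The share was below 50% on 4 chromosomes in pair 1 and on 5 in pair 2, chromosome 12 among them both times.

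**Figure D1:**
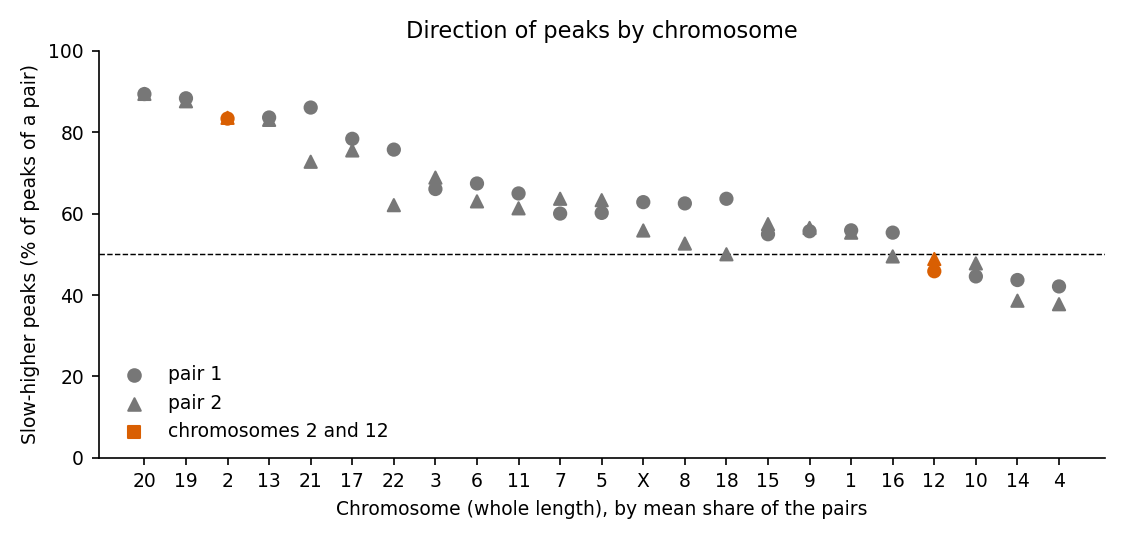
Share of peaks that were slow-higher (percent of the peaks of a pair) on each whole chromosome, ordered by the mean of the pairs, with circles for pair 1, triangles for pair 2 and a dashed line at 50%. Chromosome 2 (83.3% and 83.5%) lies among the highest and chromosome 12 (45.8% and 48.8%) just below the line, with 3 chromosomes lower by their mean.

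Per Mb of sequence, the chromosomes differed in the density of WT-higher peaks and hardly in that of slow-higher peaks. The number of genes or transcripts on each chromosome was not taken into account. Inside the limits chromosome 2 spans 233.2 Mb and chromosome 12 spans 123.9 Mb. Slow-higher peaks numbered 0.407 and 0.283 per Mb on chromosome 2 in pairs 1 and 2, and 0.388 and 0.266 per Mb on chromosome 12. The ratio of chromosome 2 to chromosome 12 was thus 1.05 and 1.06. WT-higher peaks numbered 0.0986 and 0.0643 per Mb on chromosome 2, against 0.493 and 0.307 per Mb on chromosome 12, ratios of 0.200 and 0.210.

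Chaining neighbouring peaks changed this little. Peaks of 1 list no more than 20 kb apart were joined into loci, which gave 72 and 50 slow-higher and 20 and 13 WT-higher loci on chromosome 2, and 37 and 24 slow-higher and 52 and 31 WT-higher loci on chromosome 12. Per Mb, chromosome 2 over chromosome 12 gave 1.03 and 1.11 in slow-higher loci, and 0.204 and 0.223 in WT-higher loci. In the lists as a whole, chromosome 2 supplied 5.04% and 4.77% of slow-higher peaks and 2.51% and 2.12% of WT-higher peaks. Chromosome 12 supplied 2.55% and 2.39% of slow-higher peaks and 6.67% and 5.37% of WT-higher peaks.

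**Figure D2:**
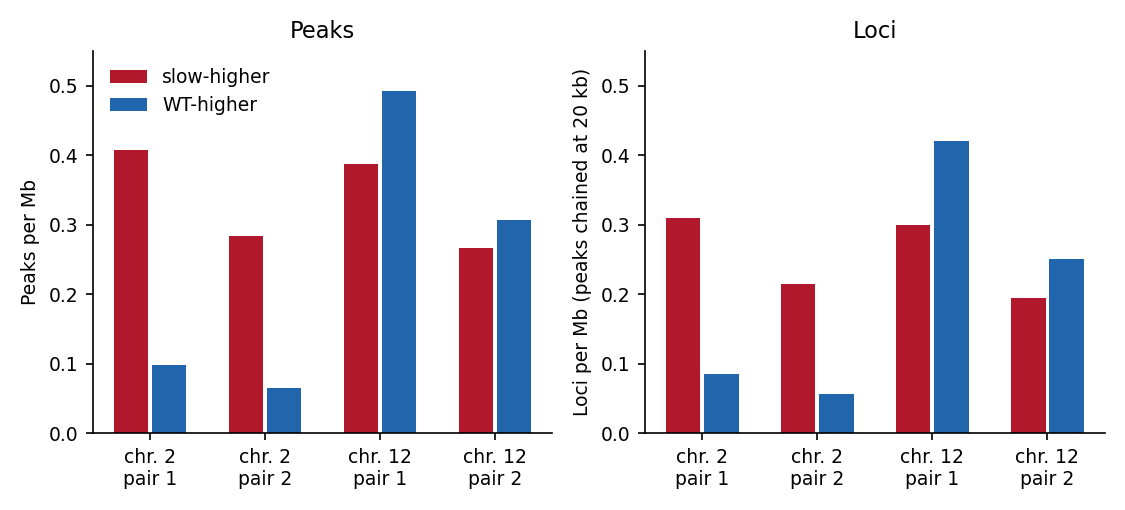
Peaks per Mb (left) and loci per Mb (right) inside the position limits, for slow-higher (red) and WT-higher (blue) lists of each pair. Red bars are nearly the same height on both chromosomes within a pair (0.407 and 0.388 peaks per Mb in pair 1), while the blue bars of chromosome 12 (0.493 and 0.307) stand about 5 times as high as those of chromosome 2 (0.0986 and 0.0643).

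Slow-higher peaks of chromosome 2 were spread over most of its length, with more in the first part. The middle 50% of them lay from 70.2 to 158.0 Mb in pair 1 and from 68.6 to 132.5 Mb in pair 2, around medians of 97.5 and 96.4 Mb. The midpoint of the chromosome had 62 of 95 (65.3%) and 46 of 66 (69.7%) before it. The windows of 10 Mb with most slow-higher peaks were 20 to 30 Mb with 11 and 9 peaks, 90 to 100 Mb with 11 and 7, 110 to 120 Mb with 10 and 6, and 70 to 80 Mb with 9 and 8. A further group of 8 and 6 lay at 170 to 180 Mb. The longest stretch with no slow-higher peak in either pair ran for 15.2 Mb, from 201936873 to 217092287.

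WT-higher peaks of chromosome 2 were few and scattered. No 10 Mb window held more than 4 in a list, and 12 of 23 (52.2%) and 8 of 15 (53.3%) lay before the midpoint. Between 75061962 and 106498258, a stretch of 31.4 Mb, neither pair had a WT-higher peak, although the 2 complete windows inside it, from 80 to 100 Mb, held 6 and 11 slow-higher peaks in pair 1 and 3 and 7 in pair 2. The windows from 40 to 50 Mb and from 180 to 190 Mb went the other way. The first held 2 and 2 WT-higher peaks, the second held 2 and 1, and both held 0 slow-higher peaks in both pairs. Across the chromosome slow-higher peaks were the more numerous in both pairs in 15 of 25 windows, of which the last lies outside the limits and could hold no peak.

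On chromosome 12 the directions leaned toward different parts but overlapped along most of it, with both in 11 of 14 windows. The last of these windows lies outside the limits and could hold no peak. Slow-higher peaks were concentrated toward the far end, with 17 of 48 (35.4%) in pair 1 and 10 of 33 (30.3%) in pair 2 between 120 and 130 Mb. A single run of 22.6 kb, described further on, supplied 6 and 7 of these. Before the midpoint of the chromosome lay 19 of 48 slow-higher peaks (39.6%) in pair 1 and 13 of 33 (39.4%) in pair 2. WT-higher peaks leaned the other way, with 38 of 61 (62.3%) and 21 of 38 (55.3%) before it. Their medians lay at 64.5 and 64.8 Mb, whereas the slow-higher medians lay at 109.0 and 104.5 Mb. Counted as loci and averaged over the pairs, the medians were closer, at 63.4 Mb for WT-higher and 82.3 Mb for slow-higher.

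Single windows of chromosome 12 showed this most clearly. From 60 to 70 Mb there were 0 and 0 slow-higher peaks but 9 and 7 WT-higher peaks, and from 80 to 90 Mb 0 and 0 against 4 and 2. The longest stretch without a slow-higher peak in either pair, 18.3 Mb from 58139666 to 76425882, covers the first of these windows. In the window from 120 to 130 Mb the order was turned, with 17 and 10 slow-higher and 5 and 1 WT-higher peaks. From 50 to 60 Mb the directions were level, with 7 and 6 slow-higher and 7 and 7 WT-higher peaks. WT-higher peaks were the more numerous in both pairs in 7 of 14 windows and slow-higher peaks in 2. No stretch longer than 9.82 Mb lacked WT-higher peaks.

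**Figure D3:**
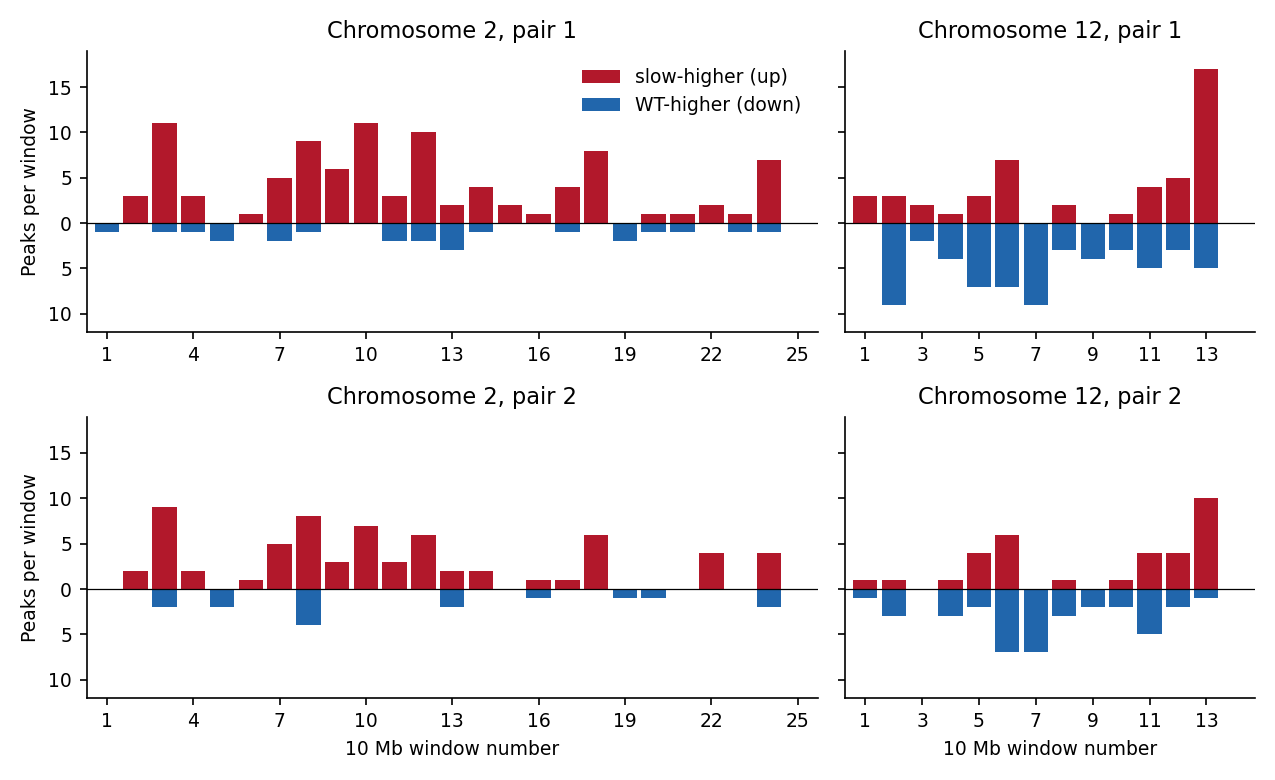
Number of slow-higher (red, up) and WT-higher (blue, down) peaks in each 10 Mb window, numbered along the chromosome, with pair 1 above and pair 2 below. Chromosome 2 is red over most of its length, while on chromosome 12 blue fills window 7 (9 and 7 WT-higher, 0 and 0 slow-higher) and red dominates window 13 (17 and 10 slow-higher, 5 and 1 WT-higher). The outer 5 Mb are left out, so the first and next-to-last windows are incomplete and the last window can hold no peak.

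The position limits removed more slow-higher than WT-higher peaks, in a series where 67.3% and 66.2% of all peaks were slow-higher. The outer 5 Mb of chromosome 2 held 20 and 10 slow-higher and 0 and 0 WT-higher peaks. The outer 5 Mb of chromosome 12 held 7 and 9 slow-higher and 4 and 6 WT-higher peaks. Nearest inside the far limit of chromosome 2 lay a slow-higher peak of pair 1 from 237994562 to 237994677 with a fold of 5.78, and nearest outside it 1 from 239155012 to 239155127 with a fold of 7.64. Nearest inside the near limit lay a WT-higher peak of pair 1 from 9546302 to 9546651 (fold 6.29), and nearest outside it a slow-higher peak of pair 2 from 3491534 to 3491657 (fold 4.77). For chromosome 12 the nearest peaks inside were slow-higher at both limits, from 6562478 to 6562593 (fold 4.85) and from 127650545 to 127650693 (fold 10.2). The nearest outside were a WT-higher peak from 2933464 to 2933602 (fold 5.19) and a slow-higher peak from 132434291 to 132434425 (fold 7.55).

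Recurrence between the pairs was counted from peaks of the same direction that overlapped by at least 1 bp. On chromosome 2, 34 of 95 slow-higher peaks of pair 1 (35.8%) and 34 of 66 of pair 2 (51.5%) recurred, as did 7 of 23 (30.4%) and 7 of 15 (46.7%) WT-higher peaks. On chromosome 12, 18 of 48 (37.5%) and 18 of 33 (54.5%) slow-higher peaks recurred, and 20 of 61 (32.8%) and 19 of 38 (50%) WT-higher peaks. Over the whole lists 44.0% and 63.1% of slow-higher peaks recurred, and 29.9% and 38.5% of WT-higher peaks. Counting error on the shares is wide, with 95% intervals of 26.2% to 46.3% and 38.9% to 64.0% for slow-higher peaks of chromosome 2 and of 13.2% to 52.9% and 21.3% to 73.4% for its WT-higher peaks. No peak of either chromosome overlapped a peak of the opposite direction in the other pair. How often this held on the other chromosomes was not counted, so it cannot be called a trait of these chromosomes.

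Peaks that recurred had the higher median confidence in every list. On chromosome 2 the median −log10 q was 12 and 8.94 where slow-higher peaks recurred, and 10.7 and 8.67 where WT-higher peaks did, against 7.75 and 8.03, and 6.70 and 6.46, for peaks that did not recur. On chromosome 12 the recurring slow-higher peaks had medians of 12.1 and 13.1 and the recurring WT-higher peaks of 8.73 and 8.38, against 9.35 and 7.90, and 6.73 and 7.27. Some of the peaks without an overlap still lay in a stretch that the other pair also marked, within 20 kb. This held for 19 and 15 slow-higher and 1 and 1 WT-higher peaks of chromosome 2, and for 8 and 5 slow-higher and 9 and 9 WT-higher peaks of chromosome 12. A peak seen in 1 pair was not called at the depth of the other, which does not show its absence.

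Joining the overlapping peaks gave 34 recurring slow-higher regions in 28 loci and 7 recurring WT-higher regions in 6 loci on chromosome 2. Chromosome 12 had 17 slow-higher regions in 12 loci and 19 WT-higher regions in 17 loci. Most were single peaks in both pairs, namely all 34 and all 7 regions of chromosome 2 and 16 of 17 and 18 of 19 of chromosome 12. Per Mb, chromosome 2 had 0.120 slow-higher and 0.0257 WT-higher recurring loci, and chromosome 12 had 0.0969 and 0.137. At −log10 q of 5 or more, the 17 WT-higher loci of chromosome 12 became 10.

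Summits of the pairs mostly fell at the same place. They lay a median of 18 bp apart in slow-higher and 28 bp in WT-higher regions of chromosome 2, and 12 and 8 bp apart on chromosome 12. Within 100 bp were 32 of 34 and 5 of 7 regions on chromosome 2, and 17 of 17 and 16 of 19 on chromosome 12. The widest separation, 524 bp, was at the WT-higher region of chromosome 2 from 75061195 to 75061962, where the folds of the pairs describe different parts of the region.

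**Figure D4:**
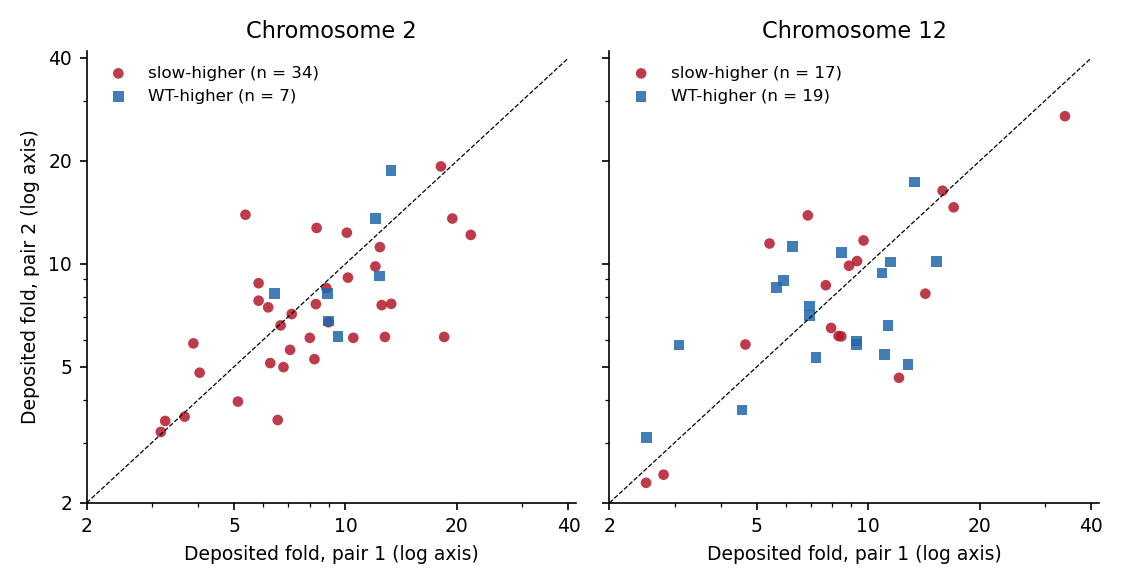
Deposited fold of each recurring region in pair 1 (x axis) and pair 2 (y axis), both log axes, with slow-higher regions as red circles, WT-higher regions as blue squares and a dashed line of equality. Points lie around the line between about 2.29 and 34, the highest being the slow-higher region of chromosome 12 with folds of 34 and 27.0.

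The strongest recurring slow-higher regions of chromosome 2 combined 10 to 26 slow fragments with almost no WT background. At 86771959 to 86772538 the fold was 18.1 in pair 1 and 19.3 in pair 2, with 19 and 20 slow fragments at the summit. At 172017070 to 172017262 it was 19.4 and 13.6, with 24 and 15 fragments. The scaled WT background was at most 0.287 fragments at both, so these folds rest on the slow fragments and the added 1.

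At 4 further positions the slow library was again about 10-fold higher or more in both pairs. The region from 70166816 to 70167020 reached 21.8-fold and 12.1-fold with 26 and 17 slow fragments. At 111875031 to 111875282 the fold reached 12.4 in pair 1 and 11.2 in pair 2. At 10360195 to 10360487 it reached 10.1 and 12.3, and at 114461793 to 114462026 it reached 12 and 9.83. All 6 regions had fewer slow fragments than the well-covered regions described further on.

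Chromosome 2 also held 2 runs with at least 3 slow-higher peaks in both pairs. The run from 27592812 to 27601210 had 3 peaks in each pair, and all 3 positions recurred. Its first peak pair had folds of 8.01 and 6.07 with 9 and 8 slow fragments. The last, from 27601065 to 27601210, had lower folds of 3.68 and 3.57 with 36 and 37 slow fragments, against a WT background that was 22 and 20 fragments before scaling. The run thus held both a sparse and a well-covered peak. The other run, from 111870466 to 111878612, had 4 peaks in pair 1 and 3 in pair 2, and 2 of its positions recurred.

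The remaining 21 slow-higher loci of chromosome 2 that recurred began at 10.91, 25.05, 27.85, 66.65, 68.55, 68.69, 69.97, 71.13, 74.70, 74.78, 85.77, 96.10, 97.47, 106.01, 122.55, 129.03, 130.94, 164.59, 176.98, 232.57 and 232.66 Mb. Of all 28, the windows from 60 to 70 Mb and from 70 to 80 Mb held 4 each, and none began between 180 and 230 Mb. The pairs disagreed most in size at 164.59 Mb, with folds of 18.5 and 6.11, and at 97.47 Mb, with 5.37 and 13.9. Before scaling, the WT background was 0.464 and 2 fragments at the first of these and 3 and 0.161 fragments at the second, values that differ by few fragments. At 96.10, 106.01 and 122.55 Mb the WT background was at the genome-wide average in both pairs, the lowest value the caller uses, and only 3 to 8 slow fragments lay behind folds of 3.88 to 8.78.

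A few slow-higher regions lay where both conditions had many fragments. On chromosome 2 the region from 176976646 to 176976820 had 74 and 69 slow fragments, against an unscaled WT background of 55 and 43, and folds of 3.17 and 3.22. The region from 129025679 to 129026030 had 64 and 66, against 46 and 38, and folds of 3.26 and 3.47. On chromosome 12, from 56511219 to 56511446, 108 and 106 slow fragments stood against 103 and 95 unscaled WT fragments, with folds of 2.51 and 2.29. There the numbers of distinct fragments were nearly equal, and the fold is close to the depth ratios of 2.43 and 2.08. From 120878228 to 120878364, 41 and 41 slow fragments stood against 34 and 34, with folds of 2.80 and 2.42. At most 1 fragment per position and strand was kept, and the part of that limit at such covered positions was not tested.

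On chromosome 12 the highest slow-higher region of either chromosome lay from 122687993 to 122689296. Its strongest peak had a fold of 34 in pair 1 with 44 slow fragments and 27.0 in pair 2 with 32, against a scaled WT background of 0.325 and 0.221 fragments. It belonged to a run from 122687768 to 122710410, 22.6 kb long, with 6 slow-higher peaks in pair 1, 7 in pair 2 and 0 WT-higher peaks. The summits of the highest peaks of the pairs were 122688472 and 122688463.

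Within that run the folds were lower away from the main peak. The region at 122690999 to 122691176 came next with 14.3 and 8.18 and 25 and 19 slow fragments. The region at 122689652 to 122689792 had 7.68 and 8.66, and that at 122692757 to 122693076 had 4.66 and 5.81. The recurring part of the run thus spanned 5.08 kb. A last peak, in pair 2 only, lay apart from it between 122710120 and 122710410, with 6 fragments and a fold of 6.61. The run alone made up 6 of the 17 and 7 of the 10 slow-higher peaks of the window from 120 to 130 Mb.

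**Figure D5:**
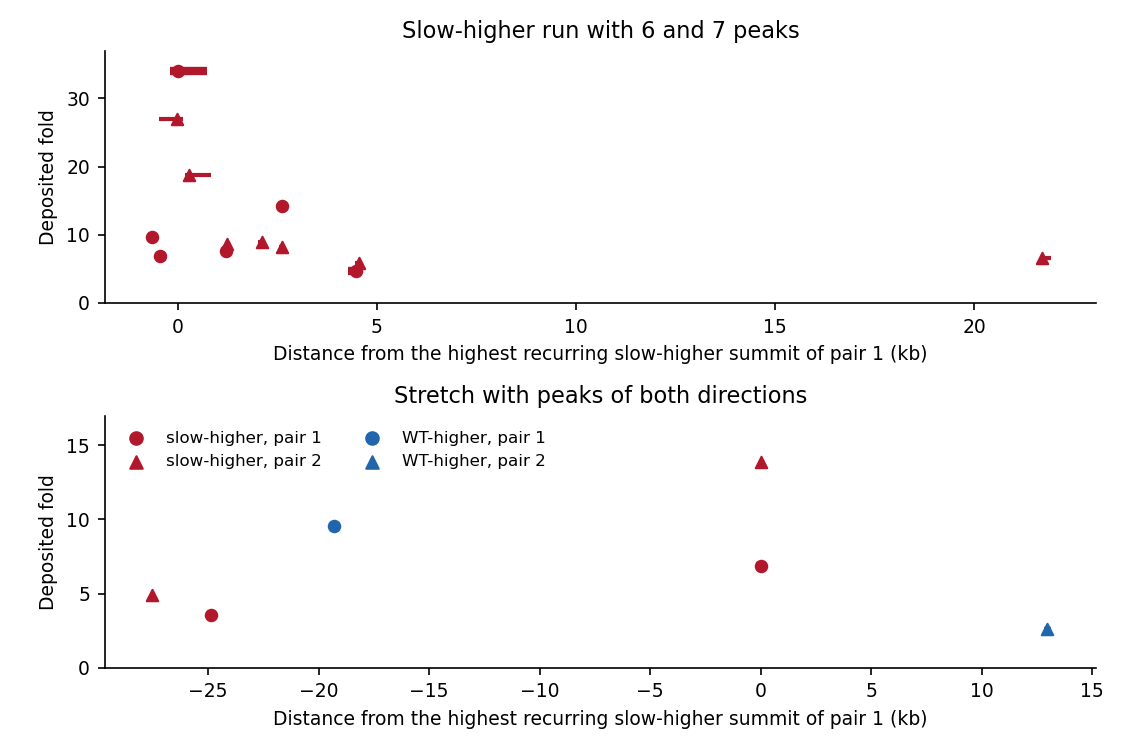
Peaks of 2 stretches of chromosome 12, by distance in kb from the highest recurring slow-higher summit of pair 1 and by deposited fold, with a bar for each peak's extent and a circle (pair 1) or triangle (pair 2) at its summit. The upper panel shows the slow-higher run with folds up to 34 and 27.0, and the lower panel the stretch near 58.1 Mb where slow-higher (red) and WT-higher (blue) peaks alternate.

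The other strong slow-higher regions of chromosome 12 held 1 peak in each pair. Those at 6.64, 109.02 and 121.88 Mb were not isolated, since pair 1 had 2 slow-higher peaks within 20 kb at each. At 109017309 to 109018075 the slow library was 15.9-fold and 16.4-fold higher with 41 and 39 slow fragments. At 6643296 to 6643505 it was 17-fold and 14.6-fold higher with 58 and 45. Both had a scaled WT background between 1.44 and 2.47 fragments, and more slow fragments lay behind these folds than behind the strongest of chromosome 2.

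Lower folds of about 10 were found at 3 positions. At 108985430 to 108985671 they reached 9.71 and 11.7 with 9 and 11 slow fragments. Those at 127650544 to 127650693 came to 9.32 and 10.2, and those at 121881186 to 121881518 to 8.87 and 9.87. The first of these lay close before the stronger region at 109.02 Mb. The remaining 6 recurring slow-higher loci began at 49.39, 56.51, 58.14, 78.22, 110.21 and 120.88 Mb. At 110.21 Mb the larger of 2 regions, from 110206614 to 110207301, had 91 and 79 slow fragments and folds of 8.45 and 6.13.

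Recurring slow-higher regions of chromosome 12 reached from 6.64 to 127.65 Mb, and recurring WT-higher regions from 14.61 to 123.07 Mb. The 17 WT-higher loci fell in 10 of its 14 windows, against 7 for the 12 slow-higher loci. The highest WT-higher fold lay from 65268924 to 65269566, at 13.3 and 17.4. The slow background there was 0.282 and 0.0282 fragments, against 39 and 35 WT fragments before scaling. The value of pair 2 is the genome-wide average, the lowest the caller uses. From 32734934 to 32735179 the slow background was 0.0365 and 0.139 fragments, against 36 and 22 WT fragments, and the folds were 15.3 and 10.2. Next came the region from 48543245 to 48543541, with folds of 11.5 and 10.1. The slow background was at most 1 fragment at each of these 3 summits.

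A pair of WT-higher regions formed a locus of 17.9 kb from 85677345 to 85695224. In both, and in both pairs, the slow background was again at the genome-wide average. The first had 26 and 12 WT fragments with folds of 11.3 and 6.59, and the second 25 and 18 with folds of 10.9 and 9.40. The same floor in both pairs was reached at 64812563 to 64812731, with folds of 6.92 and 7.06, and at 123067345 to 123067512, with folds of 6.92 and 7.53. This made 4 of 19 WT-higher regions of chromosome 12, beside 1 of 17 slow-higher regions there, and 3 of 34 slow-higher and 0 of 7 WT-higher regions on chromosome 2.

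At 107.71 Mb another pair of regions lay close together, the first from 107712472 to 107713062 with folds of 8.46 and 10.8. The remaining 10 recurring WT-higher loci of chromosome 12 began at 14.61, 19.59, 33.03, 42.86, 53.78, 56.15, 63.04, 64.54, 90.05 and 116.43 Mb. The region from 19592813 to 19593197 was the most covered. It had a slow background of 20 and 15 fragments, against 126 and 101 WT fragments before scaling, and folds of 2.52 and 3.10. At 64.54 Mb the pairs disagreed most, with folds of 12.8 and 5.08 and summits 242 bp apart. Loci at 63.04, 64.54, 64.81 and 65.27 Mb made the window from 60 to 70 Mb the richest in recurring WT-higher loci.

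The 7 recurring WT-higher regions of chromosome 2 fell in 6 loci, each in a 10 Mb window of its own. From 20870687 to 20871113 the slow background was 1.00 and 0.695 fragments, against 62 and 64 WT fragments, with folds of 13.3 and 18.8. From 191301328 to 191301534 it was 0.141 and 0.139, against 31 and 30 WT fragments, with folds of 12.1 and 13.6. These were the 2 WT-higher regions of the chromosome at least 10-fold in both pairs, as were 5 of 34 slow-higher regions. On chromosome 12, 3 of 17 slow-higher and 3 of 19 WT-higher regions reached that level.

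The other WT-higher regions of chromosome 2 had folds below 10 in at least 1 pair. Near 121.75 Mb, 2 neighbouring regions had folds of 9.01 and 6.80, and of 12.3 and 9.20. The region at 230910935 to 230911220 had folds of 8.94 and 8.21, that at 75061195 to 75061962 had 6.43 and 8.21, and that at 45233243 to 45233455 had 9.54 and 6.13. Of the 7 regions, 4 had less than 1 slow fragment of background in both pairs, where values within 0.05 of 1 count as 1.

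Recurring loci of opposite direction never lay within 100 kb of each other on either chromosome. The closest were 285 kb apart on chromosome 2, a slow-higher locus at 74.78 Mb and a WT-higher locus at 75.06 Mb. On chromosome 12 the closest were the slow-higher locus at 56.51 Mb and the WT-higher locus at 56.15 Mb, 366 kb apart, and the slow-higher run at 122.69 Mb and the WT-higher locus at 123.07 Mb, 374 kb apart. Among all peaks, including those of 1 pair, directions mixed within 20 kb in 0 of 115 stretches of chromosome 2 and in 2 of 104 stretches of chromosome 12. Recurring loci were sparse, at 0.0257 to 0.137 per Mb by chromosome and direction. Neither these distances nor the mixed stretches were compared with the rest of the series, so they do not show that the directions keep apart.

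The larger mixed stretch ran for 40.8 kb from 58111913 to 58152693 and held 2 slow-higher and 1 WT-higher peak in each pair. Its recurring slow-higher region, from 58139346 to 58139666, had folds of 6.87 and 13.9 with 20 and 17 slow fragments. The WT-higher peaks did not recur. In pair 1 the WT-higher peak lay from 58120190 to 58120359 with a fold of 9.59, and in pair 2 it lay from 58152373 to 58152693 with 100 WT fragments and a fold of 2.59. In the other mixed stretch, a slow-higher peak of pair 2 with 5 fragments lay beyond the recurring WT-higher region that starts at 56145200, within 9.27 kb in all.

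In size and strength the peaks of both chromosomes were close to those of the rest of the series. Median folds of slow-higher peaks were 6.68 and 7.14 on chromosome 2 and 7.68 and 7.44 on chromosome 12, against 6.58 and 6.83 on other chromosomes and contigs. For WT-higher peaks they were 7.20 and 8.21, and 6.92 and 7.06, against 6.88 and 7. Median lengths of slow-higher peaks were 132 and 155 bp on chromosome 2 and 139 and 151 bp on chromosome 12, against 153 and 164 bp elsewhere. WT-higher peaks had median lengths of 188 and 188 bp, and 181 and 166 bp, against 177 and 178 bp.

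Background differed more between the chromosomes. The share of peaks with less than 1 fragment of background in the opposing library, before scaling and with values within 0.05 of 1 counted as 1, was 48.4% and 50% for slow-higher peaks of chromosome 2 and 37.5% and 39.4% for those of chromosome 12, against 37.7% and 47.4% elsewhere. For WT-higher peaks it was 78.3% and 73.3% on chromosome 2 and 57.4% and 60.5% on chromosome 12, against 56.1% and 49.2%. Slow-higher peaks had medians of 12 and 10 slow fragments on chromosome 2, and 16.5 and 17 on chromosome 12. Medians of WT fragments at WT-higher peaks were 22 and 25 on chromosome 2, and 25 and 20 on chromosome 12. These WT numbers are before scaling and come from deeper libraries than the slow numbers. Only 12 and 4 slow-higher and 0 and 0 WT-higher peaks of chromosome 2, and 9 and 4 slow-higher and 4 and 3 WT-higher peaks of chromosome 12, had a background of at least 5 fragments after scaling.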

How the data were processed

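TopHat2 and the build hg19 are named in the submitters' processing notes, with no version or alignment settings. Peaks were called by MACS, per the file headers, in version 2.1.1.20160309 that kept peaks of q under 0.01 and 1 read per position and strand, with the larger library scaled to the smaller and local background from 1000 and 10000 bp. Pairs were not pooled. The deposited pileup is a coverage signal of fragments over the summit. Dividing by the scaling gave whole fragments, within 0.05, at every peak. The deposited fold is a ratio with a pseudocount of 1, and background was computed from both. The authors' −log10 p and −log10 q were told apart by column order and size, since their headers were lost in a spreadsheet.

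All peaks of chromosomes 2 and 12 inside the limits were used with Python 3.11.15 and pandas 2.3.3. Regions join overlapping same-direction peaks of both pairs, and loci join regions no more than 20 kb apart. Intervals are exact (Clopper-Pearson) 95% binomial intervals. Rules were tested on simulated data. Positions are named for every recurring locus, with values for the 6 regions per chromosome and direction with the largest smaller fold, runs of at least 3 peaks in both pairs, and others chosen after their values were seen. Members and lists were chosen with earlier results of these data known. The labels name no molecular identifiers, so intervals cover counting error only.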

Additional observations from a re-analysis of the deposited data

Results flagged for a closer look

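The outer 5 Mb of chromosome 2, which the comparisons leave out, held slow-higher peaks only. There were 20 in pair 1 and 10 in pair 2, beside 0 WT-higher peaks in both. Of the outer peaks of chromosome 2, 4 and 4 lay at the start of the chromosome and 16 and 6 at its end.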

How the results depend on the processing

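Of 112 alternatives, 96 kept their value within its interval or its spread between pairs (for counts, within 1.5 times) and 16 moved it. The 96 include alternatives that could not move a value or hardly could. With 2 pairs, each pair lies within their SD of the mean by construction, so leaving out a pair always counted as kept. Keeping only folds above the depth ratio removed at most 2 peaks from a list. The mean slow-higher share was 83.4% on chromosome 2 and 47.3% on chromosome 12 over whole chromosomes, 78.8% and 42.6% for loci, and 50.4% on chromosome 12 with a −log10 q of at least 5. That last mean, and the 50.9% of pair 2 behind it, lay barely on the slow side of an even division, against 45.3% and 46.5% with all peaks. Pair 1 was at 50%. The small WT excess of chromosome 12 over an even division was thus lost there and not clearly reversed. Leaving out either pair gave 80.5% to 81.5% and 44.0% to 46.5%. At that q limit 10 WT-higher loci of chromosome 12 recurred, its median folds were 7.74 (slow-higher) and 7.84 (WT-higher), and its median positions 103.6 and 65.6 Mb. Counted as loci, those positions were 82.3 and 63.4 Mb, so the slow-higher median depends on closely spaced peaks. A pseudocount of 5 lowered the median folds to 2.75 (slow-higher) and 2.79 (WT-higher) on chromosome 2 and to 3.08 and 2.56 on chromosome 12, by construction. No paired analysis was possible because a peak list gives 1 fold for a pair of libraries and nothing for each library alone, and leaving out a pair leaves nothing to recur. The small numbers of fragments at most peaks limit what can be read from a peak missing in 1 pair.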

Other observations

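Some of the higher folds were seen in 1 pair only. On chromosome 2 a slow-higher peak of pair 1 from 217363946 to 217364064 had a fold of 16.6 with 37 slow fragments. A WT-higher peak of pair 2 from 75060890 to 75061045 had a fold of 13.2 with 33 WT fragments and lay just before a recurring WT-higher region. On chromosome 12 slow-higher peaks of 1 pair reached 11.4 in pair 1, from 122185219 to 122185736, and 11.7 in pair 2, from 96236178 to 96236358. WT-higher peaks of 1 pair reached 11.3 in pair 1, from 32945290 to 32945497, and 11.5 in pair 2, from 74931592 to 74931762, the last with 55 WT fragments.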
